A study of Rattus norvegicus with 20 samples.

Results

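The rows named Dcaf7, Dcx and Nsg2 held the most reads in 20 RNA-seq libraries of rat (Rattus norvegicus) spinal cord after contusion injury, in which an impact crushes the cord. They were chosen by their mean read count over all 20 libraries and are 3 of 26134 named rows, in files of 30452 rows. Their level is therefore a description with no test. Since 18 of the 20 libraries were from injured animals, the choice favours rows that are high after injury. Nsg2 ranked only 9 and 44 in the sham libraries, so its comparisons with sham are not free of the choice. Libraries came from sham animals, labelled Day0, and from the rostral, epicenter and caudal segments at 1, 14 and 28 days after injury (DPI-1, DPI-14 and DPI-28), with 2 libraries in each of the 10 groups. Sham libraries carried the numbers 1 and 3, DPI-1 and DPI-14 libraries the numbers 1 and 2, and DPI-28 libraries the numbers 1 and 3. Strain, sex, age, the sham segment and the severity of the contusion are not stated in the sources at hand. Nothing in the labels ties the libraries of a group to separate animals. The p-values therefore reflect the spread from library to library alone, and that spread may be technical. Segments of 1 number and day may come from 1 animal, which the labels do not state either, and the fit treated them as independent.

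In the rat, the Dcaf7 symbol belongs to a WD-repeat adaptor protein that binds the DDB1 arm of CUL4 ubiquitin ligases and the kinases DYRK1A and HIPK2. The Dcx symbol belongs to doublecortin, which stabilises microtubules in immature and migrating neurons and is used as a marker of newborn neurons. The Nsg2 symbol belongs to a small neuronal membrane protein of endosomes and vesicles, tied to AMPA receptor trafficking. In a library of total RNA depleted of ribosomal RNA, a row can also collect reads of introns, repeats or unlisted transcripts inside the gene. No read positions, gene lengths or genome of the files' build (rn6) were used here, so each symbol is a row label, and a count shows how many reads a row took, not how much of a gene's transcript there was.

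Total reads in named rows ran from 1216863 to 5233315 per library. At this depth the exact 95% binomial interval of a row's share, which covers counting error only, was at most 1.01% of the value either side for Dcaf7, 1.20% for Dcx and 4.11% for Nsg2. The 4 libraries numbered 3 (sham and the 3 segments at DPI-28) stood apart from the other 16, and what the number marks was not stated. When the fit was given a term for them, edgeR's quasi-likelihood test called 2526 of 12528 tested rows (20.2%) at an adjusted p under 0.05. Every comparison with sham or DPI-28 holds such a library, and values with and without them follow.

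Dcaf7 had a mean of 123150 reads, 3.63% of the reads in named rows. Dcx had 100625 reads (2.97%) and Nsg2 had 58428 (1.74%). The next row, Rasal3, lay just outside the choice with 30060 reads (0.922%), followed by Gpr162 with 22762 and Kcp with 17454. Dcaf7 was the first row of its library in 14 libraries, Dcx in 4 and Nsg2 in 1. Dcaf7 never ranked below 3 and Dcx never below 4, whereas Nsg2 ranked as low as 105. The highest share was 5.28 times the lowest for Dcaf7, 3.29 times for Dcx and 54.1 times for Nsg2.

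Dcaf7 held 1.73% of named-row reads in sham library 1 and 2.13% in sham library 3. At DPI-1 the shares in libraries 1 and 2 were 4.58% and 4.34% in the rostral segment, 3.33% and 3.64% in the epicenter, and 3.23% and 3.03% in the caudal segment. All 6 lay above both sham libraries, a pattern found in 5.76% of tested rows. At DPI-14 they were 3.40% and 3.21% rostral, 3.83% and 3.65% in the epicenter, and 4.77% and 2.63% caudal. Again all 6 lay above both sham libraries, as in 7.19% of rows. At DPI-28 libraries 1 and 3 held 5.50% and 3.66% rostral, 6.49% and 4.28% in the epicenter, and 3.82% and 1.23% caudal. The caudal library 3 was the only injured library below sham. In all, 17 of 18 injured libraries lay above both sham libraries, and at least 17 did so in 1.45% of rows. Ordered by their mean, the 10 groups ran from sham (1.93% ± 0.285, SD, n = 2) through the caudal segment at DPI-28 (2.53% ± 1.83) to the rostral segment at DPI-1 (4.46% ± 0.168), the rostral segment at DPI-28 (4.58% ± 1.30) and the epicenter at DPI-28 (5.38% ± 1.56). Neighbours in that order overlapped, except that both rostral DPI-1 libraries lay above both epicenter DPI-14 libraries, a pattern whose share of rows was not counted.

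Dcx showed no such step away from sham. Its share was 3.95% and 3.29% in the sham libraries. At DPI-1 it was 4.39% and 3.58% rostral, 3.38% and 2.17% in the epicenter, and 2.76% and 1.57% caudal. The rostral, epicenter and caudal libraries thus ran downwards within each of the numbers 1 and 2, a pattern whose share of rows was not counted. At DPI-14 it was 3.33% and 3.54% rostral, 2.61% and 3.12% in the epicenter, and 3.98% and 2.53% caudal, with no such order. At DPI-28 it was 4.17% and 2.72% rostral, 2.49% and 1.81% in the epicenter, and 2.75% and 1.33% caudal. Of 18 injured libraries 3 lay above both sham libraries and 11 below both, and at least 11 lay below in 28.4% of rows. After TMM scaling (edgeR's trimmed-mean factors, giving CPM, reads relative to a scaled library size), the same counts were 4 and 5, so the side on which Dcx lies depends on the scaling. For comparison, all 18 lay below both sham libraries in 0.391% of rows and above both in 0.495% by CPM. Ordered by mean share, from the caudal segment at DPI-28 (mean 2.04%, libraries 1.33% and 2.75%) to the rostral segment at DPI-1 (mean 3.98%), every pair of neighbouring groups overlapped.

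Nsg2 was low in sham, with 0.442% in library 1 and 0.132% in library 3. At DPI-1 it held 2.51% and 1.96% rostral, 3.15% and 2.93% in the epicenter, and 1.17% and 4.46% caudal. At DPI-14 it held 0.763% and 2.66% rostral, 0.870% and 0.542% in the epicenter, and 2.39% and 0.980% caudal. All 12 of these libraries lay above both sham libraries. All 6 libraries of DPI-1 did so in 5.76% of rows, and all 6 of DPI-14 in 7.19%. At DPI-28 library 1 held 2.77%, 3.39% and 3.38% in the rostral, epicenter and caudal segments. Library 3 of the same segments held 0.138%, 0.157% and 0.0826%. The libraries numbered 3, sham included, thus ran from 0.0826% to 0.157% and the other 16 from 0.442% to 4.46%, with no overlap. The same separation was found in 3.38% of rows by share and in 8.13% by CPM. Injured libraries lay above both sham libraries in 15 of 18, and at least 15 did so in 4.95% of rows. All 15 injured libraries not numbered 3 lay above, a pattern of 1.49% of rows. Ordered by mean share, sham (0.287% ± 0.219, SD, n = 2) and the next group, the epicenter at DPI-14 (0.706% ± 0.232), did not overlap. Every later pair of neighbours overlapped. The share of rows with a gap between 2 such groups was not counted.

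**Figure D1:**
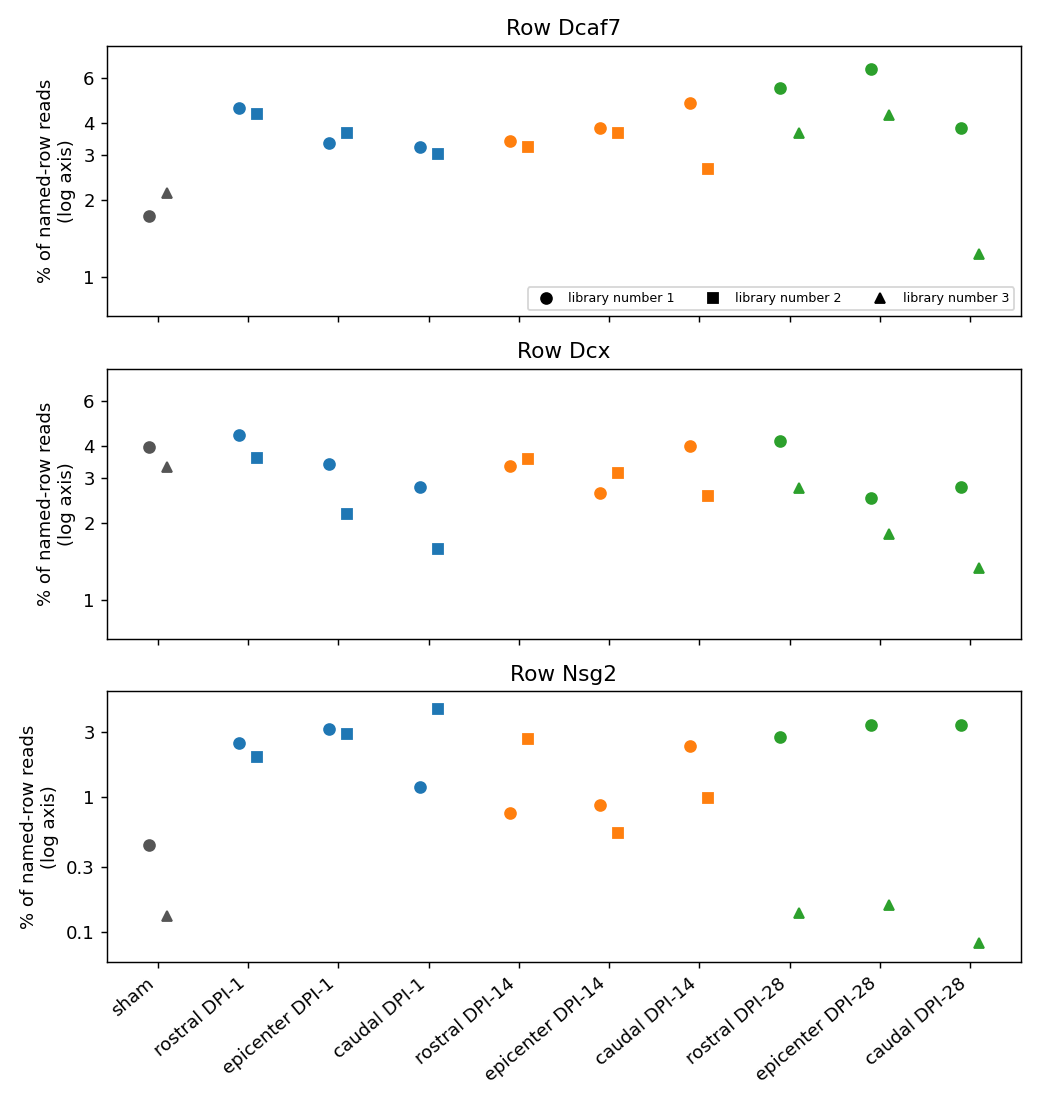
Share of named-row reads (%, log axis) in each of the 20 libraries for the rows Dcaf7, Dcx and Nsg2, by group, with circles, squares and triangles for library numbers 1, 2 and 3. Dcaf7 lies above both sham libraries in 17 of 18 injured libraries, while the 4 triangles of Nsg2 lie between 0.0826% and 0.157%, below all other libraries.

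Held within one library number, the step from sham was present in number 1 and not in number 3 for Nsg2. In libraries numbered 1, Nsg2 held 0.442% in sham and 0.763% to 3.39% in the 9 injured libraries, all above. In libraries numbered 3, it held 0.132% in sham against 0.138%, 0.157% and 0.0826% at DPI-28, on both sides. Dcaf7 held 1.73% in sham library 1 and 3.23% to 6.49% in the injured libraries of that number, and 2.13% in sham library 3 against 3.66%, 4.28% and 1.23%. Dcx was spread about sham library 1 (3.95% against 2.49% to 4.39%) and lay below sham library 3 in each of the 3 segments (3.29% against 2.72%, 1.81% and 1.33%). With a single sham library for each number, none of these differences has a replicate check. The share of all rows with such patterns within a number was not counted.

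The fit over all 12528 rows asked whether each group differed from sham. Dcaf7 averaged 17002 ± 886 CPM in sham (SD, n = 2), against 53640 ± 4499 in the rostral segment at DPI-1 and 51730 ± 27672 in the epicenter at DPI-28. Its log2 difference from sham was 1.66 (SE 0.71) in the rostral segment at DPI-1 and 1.61 (SE 0.71) in the epicenter at DPI-28, the highest among the 9 groups. It was 0.57 (SE 0.70) in the caudal segment at DPI-28, the lowest. For the mean of the 9 injured groups it was 1.20 (SE 0.58), a 2.30-fold difference, with an edgeR adjusted p of 0.597. Dcx averaged 32795 ± 10614 CPM in sham, and its log2 differences ran from -0.74 in the caudal segment at DPI-28 to 0.55 in the rostral segment at DPI-1, with SEs of 0.63 to 0.64. Its injured mean differed by -0.16 (SE 0.47, edgeR adjusted p = 0.924). Nsg2 averaged 2757 ± 2466 CPM in sham, and its log2 differences ran from 1.30 (SE 1.62) in the epicenter at DPI-14 to 3.74 (SE 1.78) in the caudal segment at DPI-1. Its injured mean differed by 2.82 (SE 1.52, edgeR adjusted p = 0.606), the widest difference of the 3 rows with the widest error.

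None of the 3 rows passed an adjusted p of 0.05. By edgeR 0 of their 51 values passed and 2 had an unadjusted p under 0.05, which were Dcaf7 in the rostral segment at DPI-1 and in the epicenter at DPI-28. By DESeq2 0 passed, and 9 were under 0.05 unadjusted. Of all tested rows, edgeR called 0.144% in the epicenter at DPI-1, 0.112% in the epicenter at DPI-14 and 0.0239% in the epicenter at DPI-28 against sham. It called 0% in the rostral and caudal segments at each time and 0% for the injured mean, for which DESeq2 called 31 rows. Unadjusted p-values under 0.05 were held by 9.31%, 13.4% and 9.34% of rows in the rostral, epicenter and caudal segments of DPI-1. These shares were 4.67%, 13.7% and 5.64% for DPI-14, 1.63%, 9.44% and 1.46% for DPI-28, and 8.35% for the injured mean. DESeq2 called 68, 267 and 70 rows in the rostral, epicenter and caudal segments of DPI-1, 2, 442 and 17 for DPI-14, and 3, 148 and 1 for DPI-28. Only 1.34% of rows had a larger absolute log2 difference than Nsg2 for the injured mean, yet 13.6% had a smaller p. For Dcaf7 these shares were 12.2% and 8.96%.

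**Figure D2:**
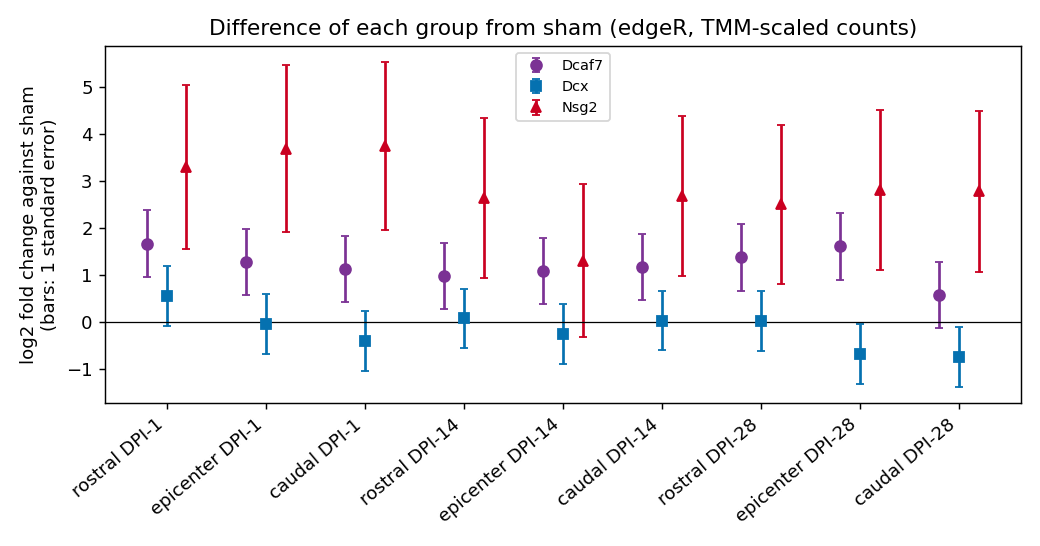
Log2 fold change of each injured group against sham from edgeR on TMM-scaled counts, for Dcaf7, Dcx and Nsg2, with bars of 1 standard error (2 libraries per group). Dcaf7 lies between 0.57 and 1.66, Dcx between -0.74 and 0.55 and Nsg2 between 1.30 and 3.74, and none passed an adjusted p of 0.05.

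The sham differences moved with the libraries numbered 3. With those libraries left out, a single sham library remained, assumed to vary like the other groups. The injured mean of Dcaf7 then differed by 1.34 (SE 0.46) and that of Nsg2 by 2.44 (SE 0.97), with an edgeR adjusted p of 1 for both. With these libraries kept and given a term of their own, the same differences were 0.66 (SE 0.37, edgeR adjusted p = 0.842) and 0.66 (SE 0.87, edgeR adjusted p = 0.942). That term assumes 1 shift common to sham and DPI-28. By CPM, library 3 minus library 1 in sham was -0.11 for Dcaf7 and -2.15 for Nsg2 on the log2 scale. In the DPI-28 segments it was -1.09 to -2.35 for Dcaf7 and -4.83 to -6.06 for Nsg2. The values with the term rest on that assumption. The injured mean of Dcx was -0.29 (SE 0.37, edgeR adjusted p = 1) without these libraries and -0.57 (SE 0.26, edgeR adjusted p = 0.791) with the term, the second being more than 3 times the value over all libraries. The Nsg2 difference of the epicenter at DPI-14 changed sign, from 1.30 to -1.08. The Nsg2 differences at DPI-28 rested on library 1 of each segment. Without it they were -1.38 rostral, -1.23 in the epicenter and -2.32 caudal, and that of Dcaf7 in the caudal segment was -1.04. Leaving out sham library 1 moved the injured mean of Nsg2 to 4.28, and leaving out sham library 3 moved it to 2.12.

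One processing choice changed calls for Nsg2. With no filter on low counts, 20798 rows were tested, and Nsg2 passed in 11 of 17 comparisons with log2 values close to those given above, such as 2.82 for the injured mean (edgeR adjusted p = 5.18e-05). Its SE there was 0.52 against 1.52 in the filtered fit. In the filtered fit the estimate of Nsg2's spread had 5.43 prior degrees of freedom beside its own libraries. Without the filter the prior degrees of freedom were infinite, so that its own spread no longer entered the quasi-dispersion, which was 0.851 against 6.81. Dcaf7 and Dcx passed in 0 comparisons under that setting, with 6 and 0 of 17 values under an unadjusted p of 0.05.

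Between times, Nsg2 again had the widest differences and the widest errors. In the epicenter it averaged 35365 ± 3323 CPM at DPI-1 and 6811 ± 2448 at DPI-14 (SD, n = 2 each). The 2 groups did not overlap, a pattern whose share of rows was not counted. The log2 difference of Nsg2 was -2.38 (SE 1.68, edgeR adjusted p = 0.557). In that comparison 0.192% of rows were called and 13.4% had an unadjusted p under 0.05. Over the mean of the 3 segments, DPI-14 differed from DPI-1 by -1.37 (SE 0.94, edgeR adjusted p = 0.360), in a comparison that called 7.32% of rows, with 26.9% under 0.05 unadjusted. That share stands for 917 rows, which became 234 without caudal DPI-14 library 2, 1593 without caudal DPI-1 library 1 and 1981 by DESeq2. Neither comparison holds a number-3 library, but the estimate of spread does. Refitted without them, the values were -2.38 (SE 0.78, edgeR adjusted p = 0.162) and -1.37 (SE 0.44, edgeR adjusted p = 0.0629). The 6 libraries of DPI-1 held 1.17% to 4.46% and the 6 of DPI-14 held 0.542% to 2.66%, so the times overlapped once the segments were joined.

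From DPI-14 to DPI-28 Nsg2 was fitted 2.82-fold higher in the epicenter (SE 1.63 on the log2 scale) and 1.40-fold higher over the 3 segments (log2 difference 0.49, SE 0.92), with adjusted p-values of 1 and 0.870 by edgeR. Of all rows 0% and 0.0399% were called, and 2.99% and 12.9% were under 0.05 unadjusted. DESeq2 called 2 rows in the epicenter comparison and 254 over the segments. Without the number-3 libraries the log2 differences were 2.42 (SE 0.88) and 1.44 (SE 0.51), with edgeR adjusted p-values of 1 and 0.593. The 3 remaining DPI-28 libraries held 2.77% to 3.39%, all above the 6 of DPI-14, as in 2.12% of rows. No difference of Dcaf7 or Dcx between times passed. Over the 3 segments Dcaf7 differed by -0.28 (SE 0.40) from DPI-1 to DPI-14 and 0.11 (SE 0.40) from DPI-14 to DPI-28, and Dcx by -0.084 (SE 0.37) and -0.41 (SE 0.37). Without the number-3 libraries the later Dcaf7 difference was 0.64 (SE 0.27, edgeR adjusted p = 0.618) and with a term for them 0.52 (SE 0.28), while that of Dcx became 0.067 and 0.017. In the epicenter Dcaf7 differed by 0.53 (SE 0.70) from DPI-14 to DPI-28, by 0.95 (SE 0.46) without those libraries and by 1.001 (SE 0.45, edgeR adjusted p = 0.935) with the term. The signs of the first Dcx value and of the epicenter values of Dcaf7 (-0.19) and Dcx (-0.21) turned with library totals in place of TMM factors, to 0.14, 0.10 and 0.047.

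The epicenter was also set against the mean of its rostral and caudal neighbours at each time. For Dcaf7 the log2 difference was -0.13, 0.011 and 0.64 in the order of the days, with SEs of 0.59 to 0.60. For Dcx it was -0.12, -0.31 and -0.32, with SEs of 0.55 to 0.56. For Nsg2 it was 0.17, -1.35 and 0.16, with SEs of 1.38 to 1.48. All 9 values had edgeR adjusted p-values of 0.924 or more. These 3 comparisons called 0% of rows by edgeR, and DESeq2 called 1, 11 and 38 rows. The shares below 0.05 before adjustment were 5.02%, 4.29% and 6.59%.

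The spread between the 2 libraries of a group set Nsg2 apart from the other rows. Its biological coefficient of variation, edgeR's estimate of the relative spread beyond counting error, was 0.972, against 0.445 for Dcaf7 and 0.408 for Dcx. Among the 100 next most abundant rows 2 had a higher value than Nsg2, 43 than Dcaf7 and 53 than Dcx, and their median was 0.416. Taken as the log2 share of the higher number minus number 1, Nsg2 differed by -4.33, -4.43 and -5.35 in the rostral, epicenter and caudal segments at DPI-28, and by -1.74 in sham. Those are the 4 groups with a number-3 library. The spread was not confined to them, since Nsg2 differed by 1.93 in the caudal segment at DPI-1, 1.80 in the rostral segment at DPI-14 and -1.28 in the caudal segment at DPI-14. In the rostral segment at DPI-14 none of the 100 comparison rows differed as much. Its 2 closest pairs were the epicenter (-0.10) and the rostral segment (-0.36) at DPI-1.

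Dcaf7 libraries of a group lay closer together. The difference was between -0.09 and 0.13 in 5 of the 6 groups of DPI-1 and DPI-14, against -0.86 in the caudal segment at DPI-14. At DPI-28 it was -0.59 rostral, -0.60 in the epicenter and -1.64 caudal, and 12 and 17 of the 100 rows differed more than Dcaf7 in the caudal segments of DPI-14 and DPI-28. Dcx differed by -0.64 and -0.81 in the epicenter and caudal segments at DPI-1, -0.65 in the caudal segment at DPI-14 and -1.04 in the caudal segment at DPI-28. These values moved with the scaling. By CPM, Dcaf7 differed by 0.42 and 0.37 in the epicenter and caudal segments at DPI-1, the latter with the opposite sign, by -1.16 in the caudal segment at DPI-14, and by -1.09, -1.15 and -2.35 in the 3 segments at DPI-28. Dcx by CPM differed by -0.34 and -0.35 in the epicenter and caudal segments at DPI-1.

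**Figure D3:**
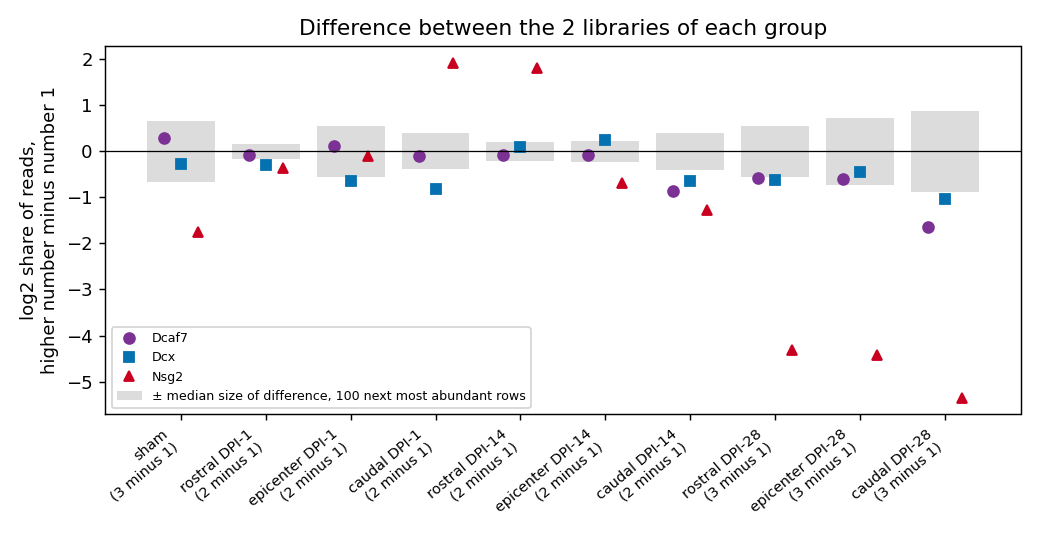
Log2 share of reads in the library with the higher number minus library 1, for each of the 10 groups, with grey bars for the median size of that difference over the 100 next most abundant rows. Nsg2 reaches -5.35 in the caudal segment at DPI-28 and lies outside the grey bar in every group except the epicenter at DPI-1 (-0.10).

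With a term for the libraries numbered 3, Nsg2 was lower in them by -4.59 on the log2 scale (SE 0.80, edgeR adjusted p = 0.00214), and 0.192% of rows had a lower value. Dcaf7 was lower by -1.17 (SE 0.31, edgeR adjusted p = 0.0142) and Dcx by -1.14 (SE 0.24, edgeR adjusted p = 0.00358). Of all tested rows, 12.52% had a lower value than Dcaf7 and 12.97% a lower value than Dcx. The term was fitted because these libraries stood apart in earlier work on these data, so its p-values are not free of that choice. The 3 DPI-28 libraries numbered 3 may come from 1 animal, and the fit treated them as independent. Across rows, the differences between numbers 1 and 3 in the DPI-28 segments correlated at 0.610 to 0.686. Only the groups holding numbers 1 and 3 inform the term. Among them, sham did not show a lower Dcaf7 share in library 3 (2.13%) than in library 1 (1.73%). By CPM the log2 difference of Dcaf7 in sham was -0.11. The call for Dcaf7 depended on the scaling. With library totals the values were -4.04 (SE 0.73, edgeR adjusted p = 0.00502) for Nsg2, -0.63 (SE 0.23, edgeR adjusted p = 0.0558) for Dcaf7 and -0.59 (SE 0.20, edgeR adjusted p = 0.0417) for Dcx. The median over all rows was 0.040 with TMM factors and 0.58 with library totals, where 25.5% of rows were called. Among called rows 710 were higher and 1816 lower with TMM factors, against 2344 and 851 with totals.

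Whether the 3 rows moved together was examined in the 16 libraries not numbered 3, on the log2 scale of each row's reads relative to the reads outside the 3 rows, so that their shares did not constrain each other. Permutations shuffled the 16 libraries freely, without holding groups or times, so the p-values treat libraries as independent. The rows of a pair shared a denominator, which can raise r. Between Dcaf7 and Nsg2 Pearson's r was 0.574 (permutation p = 0.0189, adjusted over the 3 pairs 0.0566). Spearman's rho was 0.359 (permutation p = 0.172, adjusted 0.266). Without the 2 libraries farthest from the Dcaf7 median, sham 1 and epicenter DPI-28 library 1, r was 0.292, so the relation rests on those libraries. Between Dcaf7 and Dcx r was 0.197 (permutation p = 0.461, adjusted 0.574) and rho 0.356 (permutation p = 0.177, adjusted 0.266), and r was 0.681 without the same 2 libraries. Between Dcx and Nsg2 r was -0.153 (permutation p = 0.574, adjusted 0.574) and rho -0.221 (permutation p = 0.411, adjusted 0.411), and r was 0.217 without caudal and epicenter DPI-1 library 2. The differences between libraries 1 and 2 of the 6 groups of DPI-1 and DPI-14 had r of 0.331 for Dcaf7 with Dcx, 0.529 for Dcaf7 with Nsg2 and 0.0499 for Dcx with Nsg2, given without a test.

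**Figure D4:**
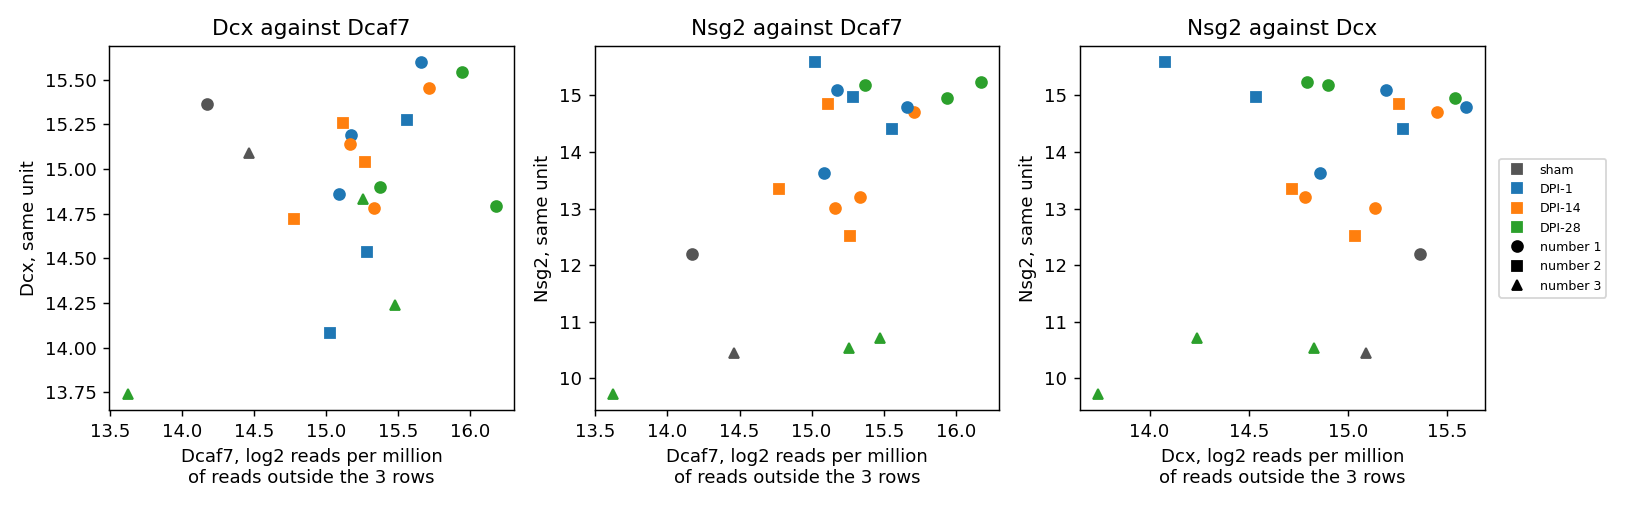
Log2 reads of a row relative to the reads outside the 3 rows (RPM), for each pair of rows in the 20 libraries, coloured by time and shaped by library number. The 4 libraries numbered 3 (triangles) lie below all others in Nsg2, and r over the other 16 libraries is 0.197, 0.574 and -0.153 from left to right.

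A ratio of reads between 2 rows of a library does not depend on its scaling, and was computed after the values had been seen. Dcaf7 had 0.437 reads per Dcx read in sham library 1 and 0.648 in sham library 3. In the 18 injured libraries the ratio ran from 0.907 to 2.61 with a median of 1.21, so that all 18 lay above both sham libraries, including the caudal DPI-28 library 3 (0.920). The ratio to Dcx of 1.96% of rows had this pattern. It was highest in the epicenter at DPI-28, with 2.61 in library 1 and 2.36 in library 3. Nsg2 had 0.148 to 1.47 reads per Dcaf7 read in the 16 libraries not numbered 3 and 0.0367 to 0.0673 in the other 4. A ratio shows that the rows did not move alike, and does not tell which of them moved.

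The 3 rows together took 2.64% to 12.4% of the reads, with a median of 8.12%. The number-3 libraries gave 2.64% to 6.52% to them and the others 6.12% to 12.4%. Reads in these rows lower the share of every other row. Leaving the 3 rows out of the library totals shifted the scaling of a library by -0.065 to 0.088 on the log2 scale, a range of 0.153 or 1.11-fold between libraries. The largest shift was in the caudal DPI-28 library 3. With TMM factors, which trim extreme rows, the range was 0.070 or 1.05-fold. Both were narrower than the range between library totals and TMM-adjusted totals themselves, which was 1.04 or 2.06-fold, so the choice of scaling moved other rows more than these 3 rows did.

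Counts of other rows called under these scalings differed more with library totals than with TMM factors. For the epicenter at DPI-14 against DPI-1, library totals called 21 of 12525 other rows and totals without the 3 rows called 40, against 24 and 25 with TMM factors. For the epicenter at DPI-1 against sham the counts were 20 and 28 with totals and 18 and 21 with TMM factors. For DPI-14 against DPI-1 over the 3 segments they were 890 and 932 with totals and 917 and 907 with TMM factors. The median log2 difference of the other rows in the epicenter at DPI-1 against sham was -0.50 with totals, -0.44 with totals without the 3 rows and -0.13 with TMM factors. The share of called rows that were higher was thus set by the scaling too: for the 3 segments it was 603 of 917 with TMM factors and 716 of 890 with totals.

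**Figure D5:**
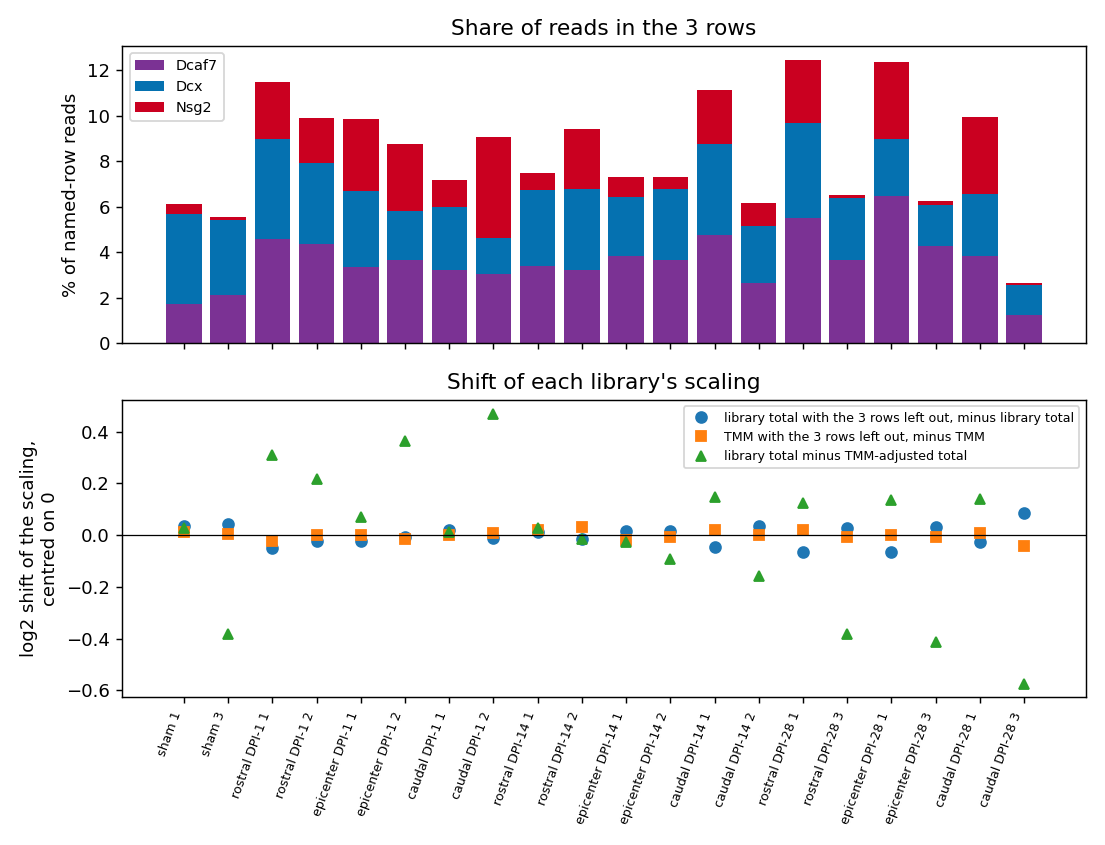
Top, share of named-row reads (%) taken by Dcaf7, Dcx and Nsg2 in each of the 20 libraries. Bottom, the log2 shift of each library's scaling, centred on 0, when the 3 rows are left out of library totals (range 0.153) or of TMM (range 0.070), and between library totals and TMM-adjusted totals (range 1.04).

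Rows of lower level that followed each of the 3 most closely were found among the 5810 rows averaging 20 CPM or more, by Pearson's r of log2(CPM + 1), as a description with no test. The points share libraries and depth. For Dcaf7 they were Csnk2b, which encodes a casein kinase subunit (r = 0.932 over 20 libraries and 0.867 over the 16 not numbered 3), Dok3, an adaptor of immune cell receptors (0.931 and 0.917), and Ddx39b, an RNA helicase of splicing and export (0.887 and 0.851). The others were Tipinl1 (0.884 and 0.703) and Muc5ac (0.881 and 0.745). For Dcx they were Sema4d, a semaphorin (0.937 and 0.864), Epn2 (0.889 and 0.749), Secisbp2 (0.884 and 0.795), LOC102546903 and Or2f1b. For Nsg2 they were Itgb1, an integrin subunit (0.957 and 0.859), Kcnq3, a potassium channel subunit (0.952 and 0.810), Psmc5, Oscar and Egln2. Over 20 libraries 226 rows had r over 0.9 with Nsg2, against 2 with Dcaf7 and 1 with Dcx. Over the 16 libraries the counts were 0, 1 and 0, so an r over 0.9 with Nsg2 depended on the number-3 libraries. The 5 rows named for Nsg2 still had r of 0.791 (Oscar) to 0.859 (Itgb1) over the 16. In the same unit the 3 rows had r of 0.785 (Dcaf7 with Nsg2), 0.628 (Dcaf7 with Dcx) and 0.657 (Dcx with Nsg2) over 20 libraries.

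The genes beside the 3 in the order of the RefSeq gene table (a later assembly, used only for order) had far fewer reads. The 6 nearest named rows of Dcaf7 had means of 10.7 (Limd2) to 1128 (Ace3) reads, with r to Dcaf7 of 0.247 to 0.749 over 20 libraries and 0.170 to 0.671 over the 16 not numbered 3. Those of Dcx had 0 (Chrdl1 and Trpc5) to 155 (Sertm2) reads. Among them Pak3, a kinase of neuronal signalling with 135 reads, had r of 0.779 over 20 libraries and 0.378 over 16, and Capn6 had -0.262 and 0.167. Those of Nsg2 had 15.7 (Cpeb4) to 302 (Bod1) reads, where r was 0.882 over 20 libraries and 0.752 over 16 for Il9r (241 reads), 0.843 and 0.365 for Stc2 (286 reads), and -0.516 and -0.419 for Bod1. The abundance of the 3 rows thus did not extend to the rows beside them.

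Genes tied to the named proteins by family, function or cell type had far fewer reads than the 3 rows, though more than most rows. Lists held 24 names related to Dcaf7, 31 of immature neurons and migration and 19 of endosomes and glutamate receptor trafficking. The Dcaf7 list also holds other substrate receptors of its ligase family, such as Dcaf15. The lists had medians of 57.1, 20.1 and 30.5 mean reads per row, against 2.9 over all named rows. Their highest rows were Zranb1 (2742 reads) and Dcaf6 (868) for Dcaf7, Cdk5r1 (2062), an activator of the kinase CDK5, Ncam1 (1708), a neural adhesion molecule, and Tuba1a (739) for Dcx, and Grip2 (911), Gria2 (423) and Nsf (354) for Nsg2. Against sham no tested member of these lists passed by edgeR in any group or for the injured mean. In DPI-14 against DPI-1 over the 3 segments edgeR called 7.32% of rows. There 1 of 16 tested names of the Dcaf7 list, 2 of 20 immature neuron names and 0 of 13 endosome names passed. Dcaf15, a substrate receptor of the same ligase family, was higher at DPI-14 (15.3 to 65.9 CPM over 6 libraries against 4.23 to 17.7, log2 difference 1.56, edgeR adjusted p = 0.00884). Of the doublecortin-like kinases Dclk1 was higher (median 8.58 CPM against 1.52, with overlap, log2 difference 2.41, edgeR adjusted p = 0.0135) and Dclk2 lower without overlap (4.26 to 8.18 CPM against 9.91 to 14.9, log2 difference -1.05, edgeR adjusted p = 0.0291). The share of rows without overlap between these times was not counted. The Dcx row itself differed by -0.084 in that comparison. The median log2 differences of the 3 lists there were 0.12, 0.14 and 0.0096, against 0.067 over all rows.

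Rows of defining cell types were sparse beside these 3. The neuronal marker Rbfox3 had a mean of 658 reads and the endothelial marker Cdh5 had 799. Astrocyte markers reached 23.8 reads (Aqp4). Markers of microglia and macrophages reached 58.1 (Lyz2), followed by Csf1r (11.3) and P2ry12 (8.45), with 5 of these 8 markers under a mean of 1. The 5 neutrophil and erythrocyte markers found had at most 1.55 reads (Hbb). In DPI-14 against DPI-1 over the 3 segments the inhibitory neuron marker Gad1 (log2 difference 0.94, edgeR adjusted p = 0.0378) and the oligodendrocyte marker Opalin (1.88, edgeR adjusted p = 0.0203) were higher, as 1 of 7 tested neuron and 1 of 4 tested oligodendrocyte markers, and no other tested marker passed. The median log2 difference of the neuron markers was -0.063, on the other side of 0 from Gad1, and 7.32% of all rows were called. Of 20 names of abundant noncoding RNAs 3 were found in the files, with a mean of 19 reads for Rpph1, 0.5 for H19 and 0.15 for Rn7sl1. In bulk tissue fewer cells of a type and less RNA per cell cannot be told apart, and the part of cell makeup in the values of Dcaf7, Dcx and Nsg2 was not tested.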

How the data were processed

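Per the labels' protocols, Trizol was used for extraction and a KAPA HyperPrep kit, whose RiboErase step removes ribosomal RNA, for library preparation. The authors deposited 1 table of raw read counts per library, and HISAT2, featureCounts and the build rn6 are named in the submitters' processing notes, without versions. Strand, multi-mapping settings and annotation are not given in the sources used here, so overlapping and antisense genes cannot be told apart. Groups and numbers were taken from sample titles.

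Rows without a gene symbol (4318 rows, 5.87% to 7.37% of reads) entered no test or library total. Shares are percent of the reads in named rows. Counts were tested with edgeR 4.0.16 in R 4.3.3 (filterByExpr with a minimum count of 10, TMM factors, robust quasi-likelihood fit, 1 term per group, 10 residual degrees of freedom) in 17 comparisons, with Benjamini-Hochberg adjustment over 12528 rows. DESeq2 1.42.0 was an alternative. Pearson's and Spearman's correlations used 100000 permutations, two-sided. The 2 libraries of each group differed by more than sampling noise (chi-square per degree of freedom 8.80 to 72.5).

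In simulated counts for the epicenter at DPI-1 against sham (11857 rows tested), edgeR called 0% of 62 rows changed 2-fold, 10.8% of 65 changed 4-fold and 46.8% of 62 changed 8-fold, with 1 call among 11668 unchanged rows.

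Replicate numbers were checked by correlating the differences between the 2 libraries of each group across rows. All 6 pairs of groups holding numbers 1 and 3 gave 0.440 to 0.686. The 24 pairs that set a group with numbers 1 and 3 against a group with numbers 1 and 2 gave -0.470 to 0.408. Of these, 8 were over 0.1, the highest being caudal DPI-14 with caudal DPI-28. The check shows a shift shared between sham and DPI-28, and does not tell what the numbers mark. Of 15 pairs holding numbers 1 and 2, 7 were over 0.1 (-0.303 to 0.450), among them the 3 pairs of segments within DPI-1 (0.221 to 0.450), against -0.119 to 0.114 within DPI-14. Comparisons over the 3 segments treat the 6 libraries of a day as independent.

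The 3 rows, the gene lists and the tests were chosen with earlier results of these data known. Rows named are the 10 with the highest share, the 5 most like each of the 3, 3 neighbours on each side and up to 4 of each list with the most reads. Listed rows that passed a test are named after their values were seen. Alternatives tried were DESeq2's size factors, library totals, totals or TMM without the 3 rows, no filter, fits of just the compared groups, every library dropped in turn, the number as a block, and number-3 libraries left out or given a term. A term together with library totals was added after seeing the data.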

Additional observations from a re-analysis of the deposited data

Results flagged for a closer look

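Rows without a gene symbol were used in no comparison. Their share of all reads exceeded that of both sham libraries (6.80% and 6.92%) in 4 injured libraries. It was 7.09% in caudal DPI-14 library 2, 7.03% in rostral DPI-28 library 3, 7.11% in epicenter DPI-28 library 3 and 7.37% in caudal DPI-28 library 3. The other 14 injured libraries held 5.87% to 6.85%.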

How the results depend on the processing

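Over the alternatives that leave out no single library, 512 of 561 values of Dcaf7, Dcx and Nsg2 kept their direction and their side of the threshold, 38 changed sign and 11 passed the threshold. Those 11 are Nsg2 with no filter on low counts: 3.29, 3.66 and 3.70 for the rostral, epicenter and caudal segments at DPI-1 against sham, 2.64 and 2.66 for rostral and caudal at DPI-14, 2.52, 2.81 and 2.78 for the 3 segments at DPI-28, 2.82 for the injured mean, and -2.35 and -1.35 for DPI-14 against DPI-1 in the epicenter and over the segments. Their adjusted p-values ran from 1.09e-06 to 0.0107 by edgeR, and the infinite prior degrees of freedom of that fit replaced the row's own spread.

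The values of Dcx near 0 changed sign most, and the cause was not tested. DESeq2 and its size factors in edgeR gave Dcx -0.0032 for caudal DPI-14 and -0.033 for rostral DPI-28 against sham. Library totals gave Dcx -0.076 for rostral DPI-14, -0.15 for caudal DPI-14 and -0.072 for rostral DPI-28 against sham, 0.047 for epicenter DPI-14 against DPI-1 and 0.14 over the segments, and Dcaf7 0.10 for epicenter DPI-14 against DPI-1. Totals without the 3 rows gave -0.035, -0.10, -0.0038, 0.014, 0.13 and 0.070 in the same order. The replicate block gave Dcx -0.31 for rostral DPI-14, -0.41 for caudal DPI-14 and -0.069 for rostral DPI-28, and Nsg2 -1.16 for epicenter DPI-14 against sham. The block moved no other value across 0 or the threshold. A term for the number-3 libraries gave Dcx -0.00073 for rostral DPI-1, -0.47 for rostral DPI-14, -0.52 for caudal DPI-14 and -0.069 for rostral DPI-28 against sham, 0.064 for epicenter DPI-28 against DPI-14 and 0.017 over the segments, and Nsg2 -1.08 for epicenter DPI-14. With library totals as well, Dcx was -0.17, -0.38, -0.45 and -0.11 in those sham comparisons, 0.047 and 0.14 for DPI-14 against DPI-1 in the epicenter and over the segments, Nsg2 was -0.88 and Dcaf7 0.10 for epicenter DPI-14 against DPI-1. Leaving the number-3 libraries out gave Dcx -0.21 for rostral and -0.26 for caudal DPI-14, and 0.067 for DPI-28 against DPI-14 over the segments.

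With each library left out in turn, 0 of 318 values passed the threshold and 37 changed sign. Against sham, Dcaf7 ran from -1.04 to 1.31 in caudal DPI-28. Dcx ran from -0.34 to 0.33 in epicenter DPI-1, -0.24 to 0.46, -0.53 to 0.13 and -0.54 to 0.41 in rostral, epicenter and caudal DPI-14, -0.65 to 0.47 in rostral DPI-28 and -0.45 to 0.22 for the injured mean. Nsg2 ran from -1.38 to 3.96, -1.23 to 4.26 and -2.32 to 4.23 in rostral, epicenter and caudal DPI-28. For epicenter DPI-14 against DPI-1 Dcaf7 ran from -0.36 to 0.041. For epicenter DPI-28 against DPI-14 Dcaf7 ran from -0.17 to 0.97 and Nsg2 from -2.54 to 2.43. Over the segments, Dcx ran from -0.26 to 0.038 for DPI-14 against DPI-1, and for DPI-28 against DPI-14 Dcaf7 ran from -0.43 to 0.36 and Nsg2 from -1.21 to 0.87. For the epicenter against its neighbours Dcaf7 ran from -0.35 to 0.055 at day 1, -0.18 to 0.36 at day 14 and -0.060 to 1.44 at day 28, Dcx from -0.32 to 0.042 at DPI-1 and -0.92 to 0.25 at DPI-28, and Nsg2 from -0.20 to 0.98 at DPI-1 and -3.87 to 2.71 at DPI-28.

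Over all 20 libraries r was 0.418 for Dcaf7 with Dcx, 0.613 for Dcaf7 with Nsg2 and 0.371 for Dcx with Nsg2, and over the differences between the libraries of the 10 groups 0.662, 0.725 and 0.497. By Pearson's r those of Dcaf7 with Nsg2 passed (permutation p adjusted over 3 pairs 0.0109 and 0.0480), where 16 libraries gave 0.0566. By Spearman's rho neither passed (permutation p adjusted 0.150 and 0.171). Both sets hold the number-3 libraries. Over 20 libraries r was 0.427 without caudal DPI-28 library 3 and sham library 1. Over the differences it was 0.694 without the caudal groups of DPI-28 and DPI-14. The range of the log2 shift of library totals was 0.175 with 10 rows left out. Counts of all rows called ranged over the alternatives from 0 to 559 in epicenter DPI-1, 0 to 513 in epicenter DPI-14, 0 to 194 in epicenter DPI-28 and 0 to 216 for the injured mean against sham, and from 0 to 421, 415, 137, 96, 33 and 34 in the rostral and caudal groups in order of time. They ranged from 0 to 505 for epicenter DPI-14 against DPI-1, 0 to 26 for DPI-28 against DPI-14, 234 to 2605 and 0 to 357 over the segments, and 0 to 50, 46 and 70 for the epicenter against its neighbours. The simulated test of 2 libraries against 2 (epicenter DPI-1 against sham) called 10.8% of 4-fold changes, so a difference that did not pass there is not shown to be absent.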
